A study of Homo sapiens with 6 samples.

Results

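The transcripts described here are the 4 genes of the ID family (ID1, ID2, ID3 and ID4) and 6 genes of the BMP-SMAD pathway that acts on them: the ligand BMP4, the receptors BMPR1A and BMPR2, the decoy receptor BAMBI, and the inhibitory SMADs SMAD6 and SMAD7. They were found by gene symbol, and all 10 were present among 63241 genes measured by RNA-seq. The cells were of the human line MDA-MB-231, which comes from a triple-negative breast cancer, is mesenchymal in character and was grown in medium with 10% fetal bovine serum. The ArA group had received 40 µM of ArA, arachidonic acid in the study's title, which cells hold in membrane phospholipids as a precursor of prostaglandins, and stayed in culture for 24 h; the control group was cells without treatment, for which no vehicle is named. There were 3 libraries in each group, ArA replicates 1 to 3 and control replicates 1 to 3, and the labels do not say whether they came from separate cultures. The 10 genes were chosen by their role together with their ArA and control TPM, which were already known, so those values are given as a description, with no p-value for any of these genes and nothing read from how many pass a threshold.

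Bone morphogenetic proteins are secreted ligands of the TGF-beta superfamily that bring together type I and type II receptor kinases. The activated type I receptor phosphorylates SMAD1, SMAD5 and SMAD9, which enter the nucleus with SMAD4 and switch on target genes, among them the ID genes and the pathway's own inhibitors SMAD6, SMAD7 and BAMBI. ID proteins have a helix-loop-helix domain but no basic DNA-binding region, so they capture E proteins such as TCF3 and keep them off E-box sequences in DNA. In triple-negative breast cancer, ID1 and ID3 are known for their part in lung colonisation by tumour cells.

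The stretches of 250 bases upstream of the annotated start are shown for the 4 genes whose ArA and control libraries did not overlap, and for SMAD6, which holds a palindromic SMAD-binding sequence. They come from RefSeq on GRCh38.p14 and read 5′ to 3′ on the strand of the gene. Capitals mark GTCT or its reverse complement AGAC, the core of the SMAD-binding element, and GGCGCC, a GC-rich element known from BMP-responsive promoters. The windows are chr20:31605039-31605288 on the forward strand for ID1, chr1:23559502-23559751 on the reverse strand for ID3, chr14:53955051-53955300 on the reverse strand for BMP4 (the first of 3 annotated starts), chr10:28677271-28677520 on the forward strand for BAMBI and chr15:66701986-66702235 on the forward strand for SMAD6. GENCODE v29 places the outermost starts of ID1, ID3, BMP4, BAMBI and SMAD6 upstream of the RefSeq starts used here. Those of ID1 and SMAD6, at 31605283 and 66702228, lie within the last bases of their windows. That of BAMBI, at 28677342, also lies within its window, and the bases after it are inside the GENCODE gene. Those of ID3 and BMP4, at 23559794 and 53958761, lie upstream of their windows, which are wholly inside the GENCODE genes.
ID1: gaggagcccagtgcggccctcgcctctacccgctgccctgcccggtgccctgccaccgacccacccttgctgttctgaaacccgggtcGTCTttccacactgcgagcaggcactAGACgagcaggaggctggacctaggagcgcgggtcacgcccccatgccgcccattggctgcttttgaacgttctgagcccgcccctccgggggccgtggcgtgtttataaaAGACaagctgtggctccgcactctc
ID3: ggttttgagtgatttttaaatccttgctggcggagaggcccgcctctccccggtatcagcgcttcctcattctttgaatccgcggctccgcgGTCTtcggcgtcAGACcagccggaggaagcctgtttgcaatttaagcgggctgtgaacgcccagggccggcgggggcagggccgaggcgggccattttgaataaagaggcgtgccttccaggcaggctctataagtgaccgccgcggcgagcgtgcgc
BMP4: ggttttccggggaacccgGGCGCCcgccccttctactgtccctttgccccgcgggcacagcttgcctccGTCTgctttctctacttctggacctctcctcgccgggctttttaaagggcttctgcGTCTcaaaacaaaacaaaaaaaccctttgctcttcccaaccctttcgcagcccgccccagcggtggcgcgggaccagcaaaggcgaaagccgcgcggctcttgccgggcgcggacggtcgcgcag
BAMBI: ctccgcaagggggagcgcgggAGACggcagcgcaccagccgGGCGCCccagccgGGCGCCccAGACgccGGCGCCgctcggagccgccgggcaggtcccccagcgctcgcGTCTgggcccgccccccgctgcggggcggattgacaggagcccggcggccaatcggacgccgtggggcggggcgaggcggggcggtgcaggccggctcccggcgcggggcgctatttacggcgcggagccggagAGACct
SMAD6: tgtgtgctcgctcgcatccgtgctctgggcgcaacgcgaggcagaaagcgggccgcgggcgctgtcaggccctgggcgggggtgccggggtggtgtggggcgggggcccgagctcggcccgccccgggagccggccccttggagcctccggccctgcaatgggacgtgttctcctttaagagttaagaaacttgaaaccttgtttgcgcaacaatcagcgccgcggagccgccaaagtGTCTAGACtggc

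All 10 genes had such a window, 14 windows in all, since BMP4 and SMAD7 each have 3 starts. GTCT or AGAC stood 3 times in the ID1 window, 2 times in those of ID3, ID2 and SMAD6, and 4 times in those of BAMBI and BMPR2. It stood 1 time in the ID4 window and 0 times in that of BMPR1A. The 3 BMP4 windows held it 2, 0 and 2 times, and the 3 SMAD7 windows 4, 5 and 1 times. Of 35116 RefSeq windows of the same length, 77.5% held at least 1 match, and the median was 1 match. GGCGCC, which is its own reverse complement, stood 3 times in the BAMBI window and 1 time each in the BMPR2 window and the printed BMP4 window, and 16.4% of all windows held it. The 8-base palindrome GTCTAGAC, which contains both GTCT and AGAC, was found in the SMAD6 window and in no other window of these genes, and 0.182% of all windows held it. The E-box CANNTG, searched in the same way on both strands, was present in 61.8% of all windows. It was absent from the ID1, ID3, BAMBI and SMAD6 windows, and stood 1 time in those of ID2, ID4 and BMPR2 and 2 times in that of BMPR1A. The 3 BMP4 windows held it 0, 0 and 1 times, and the 3 SMAD7 windows 1, 0 and 1 times. These are matches of letters in a short window and say nothing about binding in these cells.

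Levels are in TPM, a share of the transcripts in a library after correction for length, so genes can be set beside each other. In bulk RNA, fewer expressing cells and less RNA per cell cannot be told apart. Over the 6 libraries, ID1 had the highest mean level of the 10 genes, 87.7 TPM, followed by ID3 at 70.0 TPM, BMP4 at 37.1 TPM, BMPR1A at 11.0 TPM, BAMBI at 10.2 TPM, BMPR2 at 6.53 TPM, ID2 at 6.10 TPM, SMAD7 at 2.75 TPM, ID4 at 1.88 TPM and SMAD6 at 1.40 TPM. Within each library the order held for most neighbours: ID1 exceeded ID3, and ID3 exceeded BMP4, in 6 of 6 libraries. Some neighbours changed places, BMPR1A exceeding BAMBI in 4 of 6 libraries and BMPR2 exceeding ID2 in 5 of 6. ID1 and ID3 together made up 95.7 ± 0.406% of the summed TPM of the 4 ID genes in ArA libraries and 94.6 ± 1.77% in control libraries (SD, n = 3 each).

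All 10 genes met the filter (1 TPM or more on average) and entered a limma fit of log2(TPM + 1) across 12999 genes. On this scale, changes of genes with low TPM come out too small. None of the 10 passed a Benjamini-Hochberg adjusted p of 0.05 in limma, where 0.0231% of the tested genes did (3 of 12999), and 2 of the 10 had an unadjusted p under 0.05 in limma against 2.78% of all tested genes. In 4 of the 10 genes (ID1, ID3, BMP4 and BAMBI) all 3 ArA libraries lay above all 3 control libraries, a pattern shown by 6.84% of tested genes. In the other 6 the groups overlapped. Because the genes were chosen with this contrast known, nothing is read from these counts. The median log2 fold change was 0.09 over the 10 genes and 0.06 over all tested genes.

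**Figure D1:**
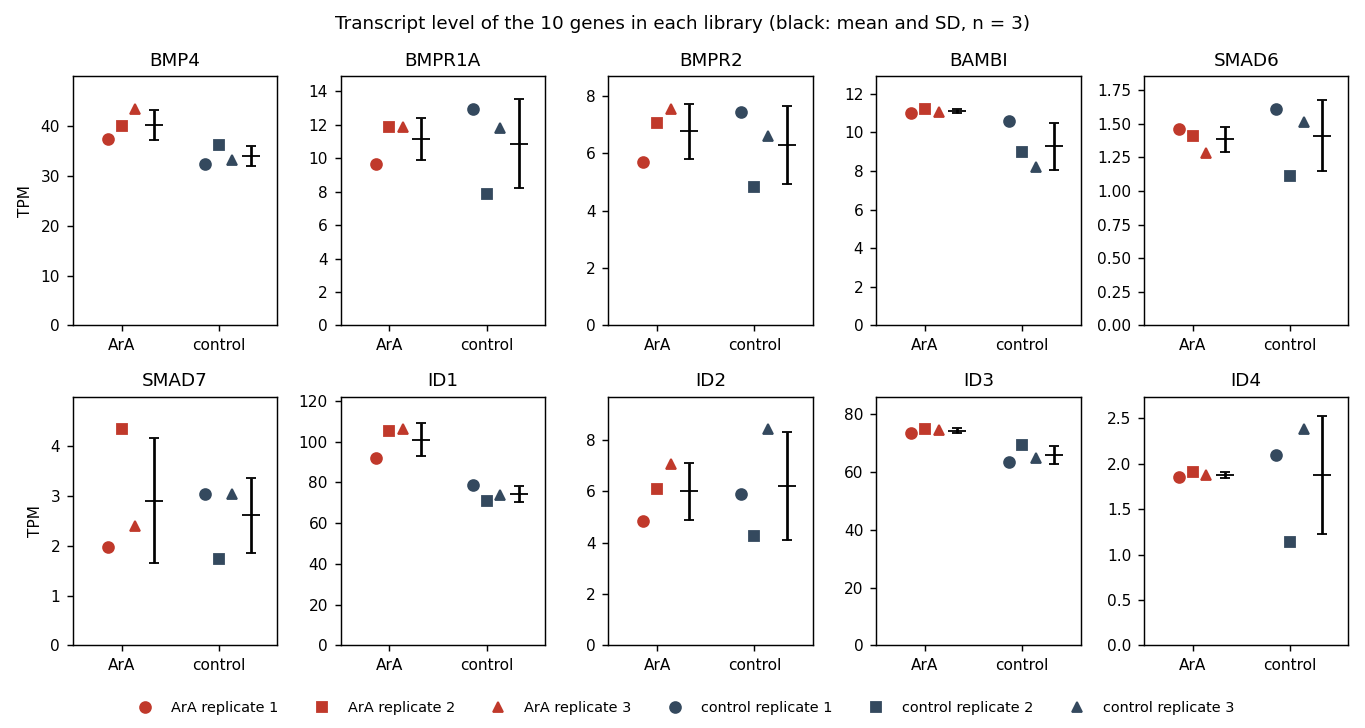
Transcript level in TPM (vertical axis, starting at 0, 1 panel per gene) in the ArA libraries at left and the control libraries at right; symbols mark replicates 1 to 3, and black bars give the mean and SD (n = 3). The ArA points lie above all control points for BMP4, BAMBI, ID1 and ID3, and the groups overlap for the other 6 genes, where control replicate 2 is the lowest point.

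BMP4 (ENSG00000125378), a ligand that signals through BMPR1A and BMPR2, is encoded on the reverse strand at chr14:53949736-53958761 in GENCODE v29 on hg38. It had 37.40, 40.05 and 43.42 TPM in ArA replicates 1, 2 and 3, against 32.43, 36.16 and 33.13 TPM in control replicates 1, 2 and 3. The lowest ArA value was 1.03 times the highest control value, so the groups were apart by a narrow margin. The fold of mean TPM was 1.19, with a log2 fold change of 0.24 (SE 0.10). With quantile normalization and with median-of-ratios scaling the groups overlapped.

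The type I receptor BMPR1A (ENSG00000107779, chr10:86756601-86932838, forward strand) had 9.68, 11.89 and 11.87 TPM in ArA libraries and 12.95, 7.88 and 11.78 TPM in control libraries, a log2 fold change of 0.05 (SE 0.19). Both the highest and the lowest of its 6 values were control libraries. The type II receptor BMPR2 (ENSG00000204217, chr2:202376936-202567751, forward strand) had 5.69, 7.05 and 7.55 TPM in ArA libraries and 7.46, 4.82 and 6.59 TPM in control libraries, a log2 fold change of 0.10 (SE 0.18). The receptors followed each other from library to library. The ratio of BMPR1A to BMPR2, which does not depend on how a library is scaled, was 1.70, 1.69 and 1.57 in ArA libraries and 1.74, 1.64 and 1.79 in control libraries. BMPR1A thus stood above BMPR2 in every library by a similar factor.

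BAMBI (ENSG00000095739, chr10:28677342-28682939, forward strand) resembles a type I receptor without a kinase domain and dampens TGF-beta and BMP signalling. It had 11.03, 11.22 and 11.08 TPM in ArA libraries, against 10.60, 9.00 and 8.22 TPM in control libraries. The ArA libraries lay within a narrow range, while control replicate 1 came close to them. The fold of mean TPM was 1.20 and the log2 fold change 0.24 (SE 0.12). The groups overlapped with each of 3 other ways of scaling and once GC content was corrected for.

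SMAD6 (ENSG00000137834, chr15:66702228-66782848, forward strand), which preferentially blocks BMP receptor signalling, was the lowest of the 10 genes, with 1.46, 1.41 and 1.28 TPM in ArA libraries and 1.61, 1.11 and 1.51 TPM in control libraries. Its groups overlapped, and its log2 fold change was -0.01 (SE 0.16). SMAD7 (ENSG00000101665, chr18:48919853-48952052, reverse strand), which blocks both BMP and TGF-beta receptors, had 1.97, 4.33 and 2.40 TPM in ArA libraries and 3.04, 1.74 and 3.04 TPM in control libraries. ArA replicate 2 alone lay above all control libraries, and the log2 fold change of 0.09 (SE 0.27) became -0.16 without it. Neither inhibitory SMAD therefore separated the groups.

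ID1 (ENSG00000125968, chr20:31605283-31606515, forward strand) had 91.80, 104.99 and 106.13 TPM in ArA libraries, against 78.77, 70.95 and 73.57 TPM in control libraries. All ArA values were above all control values, the lowest ArA value being 1.17 times the highest control value. Means were 101 ± 7.96 TPM in ArA and 74.4 ± 3.98 TPM in control libraries (SD, n = 3 each), a fold of 1.36 and a log2 fold change of 0.43 (SE 0.09). This was the largest log2 fold change of the 10 genes and exceeded that of 98.2% of tested genes. The ID1 groups stayed apart under the 3 other scalings and after GC correction, and the log2 fold change lay between 0.36 and 0.50 over 18 alternatives. On the log2(TPM + 1) scale, the lowest ArA library lay 0.218 above the highest control library as deposited. This gap was 0.195 to 0.316 with the 3 other scalings and narrowed to 0.085 after GC correction.

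ID3 (ENSG00000117318, chr1:23557918-23559794, reverse strand), the other abundant ID gene, had 73.33, 74.69 and 74.53 TPM in ArA libraries and 63.43, 69.21 and 64.71 TPM in control libraries. The groups did not overlap, and the ArA values were close together. The fold of mean TPM was 1.13 and the log2 fold change 0.17 (SE 0.08). It was 0.11 with each of 3 other ways of scaling and once GC content was corrected for, and the groups overlapped with median-of-ratios scaling and with quantile normalization.

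The ratio of ID1 to ID3 was 1.25, 1.41 and 1.42 in ArA libraries and 1.24, 1.02 and 1.14 in control libraries. ArA replicate 1 and control replicate 1 nearly met in this ratio. ID1 made up 53.4, 55.9 and 56.0% of the summed TPM of the 4 ID genes in ArA libraries and 52.4, 48.7 and 49.4% in control libraries. That sum was 183 ± 9.76 TPM in ArA libraries and 148 ± 2.43 TPM in control libraries (SD, n = 3 each).

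ID2 (ENSG00000115738, chr2:8678845-8684453, forward strand) had 4.84, 6.11 and 7.05 TPM in ArA libraries and 5.91, 4.26 and 8.43 TPM in control libraries, a log2 fold change of -0.01 (SE 0.24). ID4 (ENSG00000172201, chr6:19837386-19840684, forward strand) had 1.85, 1.91 and 1.87 TPM in ArA libraries and 2.10, 1.14 and 2.38 TPM in control libraries, a log2 fold change of 0.03 (SE 0.21). In both genes the control libraries spanned the whole range of the ArA libraries. The antisense gene ID2-AS1, which overlaps ID2, had 0.08 to 0.35 TPM, and AL022068.1, antisense to ID4, had 0.22 to 0.72 TPM. Whether reads were counted by strand is not stated in the labels, so reads of these partners, each at a lower TPM than ID2 or ID4 in every library, may not be separated from theirs.

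Libraries also differed in a way that the groups do not explain. BMPR1A, BMPR2, SMAD6, SMAD7, ID2 and ID4 had their lowest value in control replicate 2, as did ID1. Of all tested genes, 36.2% were lowest in that library. Across genes, the deviation of a library from the gene mean was correlated with the GC content of the longest transcript, with r = 0.41 in ArA replicate 1 and 0.45 in control replicate 2, against -0.10 and -0.25 in ArA replicates 2 and 3 and -0.40 and -0.25 in control replicates 1 and 3. These correlations are across genes, which are not independent replicates. The receptors have long transcripts of low GC content, 11255 bases at 40.6% GC for BMPR1A and 11461 bases at 37.6% GC for BMPR2, and both were lowest in control replicate 2 and next lowest in ArA replicate 1. The same order held for ID4, at 47.0% GC, ID2, at 53.3% GC, and SMAD7, at 58.7% GC. It did not hold for BAMBI, at 51.0% GC, or BMP4, at 54.0% GC, which were lowest in control replicates 3 and 1. Nor did it hold for ID1, ID3 and SMAD6, which with SMAD7 had 57.2 to 58.9% GC. The part of GC content in these values was not tested. With control replicate 2 and ArA replicate 1 left out, log2 fold changes were 0.47 for ID1, 0.22 for ID3, 0.34 for BMP4 and 0.23 for BAMBI, and -0.05 for BMPR1A, 0.05 for BMPR2, -0.13 for SMAD6, 0.08 for SMAD7, -0.09 for ID2 and -0.16 for ID4.

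**Figure D2:**
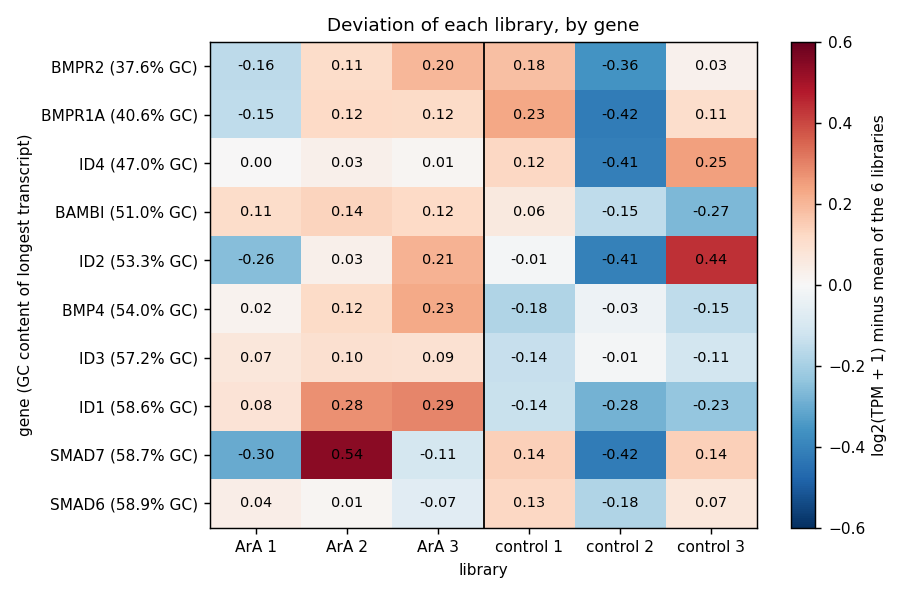
Deviation of each library from the gene's mean over the 6 libraries on the log2(TPM + 1) scale (colour and printed value), with genes ordered from low to high GC content of the longest transcript and ArA libraries left of the line. Control replicate 2 is low for BMPR2, BMPR1A, ID4, ID2 and SMAD7, at -0.36 to -0.42, while ID1 is positive in each ArA library and negative in each control library.

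After each group's mean had been subtracted, the remaining variation over the 6 libraries was compared between genes by Pearson's r, as a description, since libraries share their depth and base composition over all genes. BMPR1A and BMPR2 had r = 0.98. ID1 had r = 0.87 with BMPR2 and 0.78 with BMPR1A, which ranked only 1539 and 3705 among tested genes in likeness to ID1. With ID3 the r of ID1 was -0.30, so the abundant ID genes did not follow each other within groups. The deviations of ID3 from its group means were small, from -0.051 to 0.073 on the log2 scale. ID3 had r = -0.97 with SMAD6 and -0.89 with ID4. The 5 tested genes most like ID1 by this measure were PRIMPOL, ZNF852, PEX7, BBX and NOD1, with r from 0.994 to 0.998. Their own log2 fold changes between ArA and control libraries ran from -0.29 for BBX to 0.17 for ZNF852.

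The rest of the pathway was described from 9 lists of 148 genes that hold none of the 10 genes above; 146 were found in the table and 81 were tested. None of the 81 passed over all tested genes, and 4 had an unadjusted p under 0.05 in limma, among them TOB1, BHLHE40 and CHRDL1, all with positive log2 fold changes, against 2.78% of all tested genes. Of the 81, 62 had a positive log2 fold change, against 68.9% of all tested genes. With the 3 other scalings 43 or 44 were positive, against 49.3 to 51.7% of all tested genes. In 11 of them all ArA libraries lay above all control libraries, against 6.84% of all tested genes, and in 0 all lay below, against 1.21%. With the 3 other scalings the ArA libraries lay above in 3 to 7 of the 81, against 2.93 to 3.36% of all tested genes, and below in 1 or 2, against 2.52 to 2.72%. The lists' median log2 fold change was 0.07, against 0.06 for all tested genes. With 3 libraries in each group, a gene that did not pass, here or in the lists below, may still have changed.

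**Figure D3:**
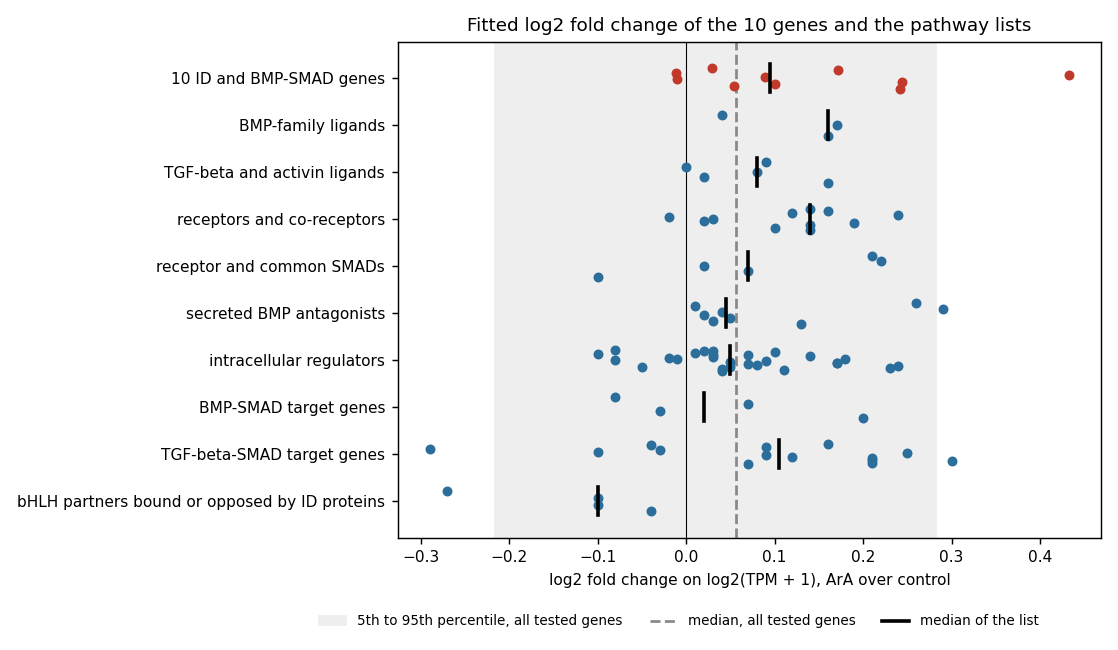
Fitted log2 fold change, ArA over control (horizontal axis), of the 10 genes (red, top) and of the tested genes of each pathway list (blue); black ticks are list medians, the dashed line is the median of all tested genes (0.06) and the grey band spans their 5th to 95th percentile (-0.22 to 0.28). ID1 lies at 0.43, right of the band, and the 4 bHLH partners lie below 0.

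Few other BMP-family ligands were present. Of 18, 3 were tested, and 0 passed. GDF15, a stress-induced member of the superfamily, had 68.7 ± 10.2 TPM in ArA and 61.0 ± 4.88 TPM in control libraries (SD, n = 3 each). GDF11 had 5.57 ± 0.521 TPM in ArA and 4.84 ± 0.0777 TPM in control libraries, a log2 fold change of 0.17 (SE 0.13). Its ArA libraries all lay above its control libraries with TPM as deposited, as in 6.84% of all tested genes. With median-of-ratios scaling and with quantile normalization its groups overlapped. BMP8B had 4.07 ± 0.240 TPM in ArA and 3.95 ± 0.390 TPM in control libraries, within the spread. BMP2 averaged 0.197 TPM and BMP6 0.570 TPM over the 6 libraries, and BMP7 0.005 TPM, so BMP4 had the highest level among the BMP genes of the table that were looked at. Of 10 TGF-beta and activin ligands, 5 were tested and 0 passed. TGFB1, the most abundant of them, had 75.2 ± 9.30 TPM in ArA and 67.0 ± 7.32 TPM in control libraries. TGFB2 had 16.0 ± 1.90 TPM in ArA and 16.0 ± 4.44 TPM in control libraries. INHBB, which codes for an activin subunit, had 8.07 ± 0.376 TPM in ArA and 7.61 ± 0.816 TPM in control libraries.

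Of 17 other receptors and co-receptors, 11 were tested, 10 had positive log2 fold changes (8 with each other scaling) and 0 passed. The most abundant was the TGF-beta type II receptor TGFBR2, at 135 ± 5.63 TPM in ArA and 124 ± 17.4 TPM in control libraries. The co-receptor NEO1 had 54.0 ± 0.255 TPM in ArA and 50.3 ± 4.35 TPM in control libraries, and the co-receptor endoglin, ENG, had 32.4 ± 2.88 TPM in ArA and 29.4 ± 4.54 TPM in control libraries (SD, n = 3 each). Of the SMADs that carry the signal, 5 of 6 were tested and 0 passed. SMAD3, a TGF-beta-activated SMAD, had 34.5 ± 2.41 TPM in ArA and 37.0 ± 2.07 TPM in control libraries. SMAD2, of the same class, had 14.6 ± 2.17 TPM in ArA and 13.8 ± 1.26 TPM in control libraries, and the BMP-activated SMAD5 had 9.00 ± 1.67 TPM in ArA and 8.92 ± 2.25 TPM in control libraries. SMAD9 averaged 0.660 TPM and was below the filter.

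Among antagonists that bind BMPs outside the cell, CRIM1 and FST had a higher mean TPM than BMP4. Of 19, 8 were tested, all 8 with positive log2 fold changes but 3 with each other scaling, and 0 passed. CRIM1, a membrane protein that binds BMPs, had 96.6 ± 7.31 TPM in ArA and 89.3 ± 19.0 TPM in control libraries. Follistatin, FST, which binds activins and BMPs, had 82.6 ± 3.50 TPM in ArA and 81.5 ± 13.2 TPM in control libraries, and NBL1, a DAN-family antagonist, had 37.1 ± 3.60 TPM in ArA and 35.8 ± 3.41 TPM in control libraries (SD, n = 3 each). CHRDL1, a chordin-like antagonist, chosen after its values were seen, had 23.03, 24.14 and 25.75 TPM in ArA libraries and 22.16, 18.34 and 18.60 TPM in control libraries, a log2 fold change of 0.29 (SE 0.11, limma adjusted p = 0.999).

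Of 29 intracellular regulators, 27 were tested, 21 had positive log2 fold changes (12 or 13 with the other scalings) and 0 passed. The list holds RLIM under both of its symbols. FKBP1A, which keeps type I receptors quiet, had 230 ± 13.1 TPM in ArA and 225 ± 17.1 TPM in control libraries. The ubiquitin ligase NEDD4L had 44.2 ± 3.19 TPM in ArA and 40.7 ± 0.485 TPM in control libraries, and the phosphatase CTDSP2 had 35.9 ± 3.31 TPM in ArA and 35.0 ± 3.71 TPM in control libraries (SD, n = 3 each). NEDD4L, TGIF1, TOB1 and SMURF1 were the 4 members of this list whose ArA libraries all lay above the control libraries, against 6.84% of all tested genes, and with the other scalings 2 or 3 did so, against 2.93 to 3.36%.

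Among BMP-SMAD target genes other than the 10, 4 of 14 were tested, 2 with positive log2 fold changes, and 0 passed. The AP-1 subunit JUNB had 29.5 ± 1.45 TPM in ArA and 25.6 ± 1.40 TPM in control libraries. The transcription factor GATA2 had 15.4 ± 1.76 TPM in ArA and 15.8 ± 1.88 TPM in control libraries, and the repressor HES1 had 8.09 ± 0.980 TPM in ArA and 7.65 ± 0.753 TPM in control libraries (SD, n = 3 each). ATOH8 averaged 0.727 TPM, HAMP 0.013 TPM, and MSX1, MSX2 and DLX5 were listed at 0 in all 6 libraries. Of 15 TGF-beta-SMAD targets, 14 were tested, 10 had positive log2 fold changes (9 or 10 with the other scalings) and 0 passed. The matricellular gene CCN2 had 177 ± 5.38 TPM in ArA and 169 ± 11.4 TPM in control libraries. Fibronectin, FN1, had 149 ± 6.54 TPM in ArA and 129 ± 17.4 TPM in control libraries.

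Of 20 basic helix-loop-helix genes that ID proteins bind or oppose, 4 were tested, all 4 with negative log2 fold changes under each scaling, and 0 passed. All scalings use the same 6 libraries, so the shared sign is not independent evidence. Of all tested genes, 68.9% had a positive log2 fold change with TPM as deposited, and 49.3 to 51.7% with the 3 other scalings. The E protein TCF3 had 31.8 ± 2.88 TPM in ArA and 32.7 ± 2.39 TPM in control libraries, and the E protein TCF12 had 9.25 ± 2.08 TPM in ArA and 10.2 ± 3.54 TPM in control libraries (SD, n = 3 each). HEYL had 1.94 ± 0.151 TPM in ArA and 2.17 ± 0.469 TPM in control libraries. Log2 fold changes were -0.04 (SE 0.11) for TCF3, -0.10 (SE 0.27) for TCF12 and -0.10 (SE 0.17) for HEYL, each smaller than its SE. TCF4, the other gene tested, had -0.27 (SE 0.18). The groups overlapped in each of the 4 with TPM as deposited. Rescaled without mitochondrially encoded transcripts, 1 of the 4 had all ArA libraries below all control libraries, against 2.68% of all tested genes. With median-of-ratios scaling, quantile normalization and GC correction 0 of the 4 did, against 2.52, 2.72 and 3.98% of all tested genes. TWIST1, MYOD1 and NEUROD1 were listed at 0 in all 6 libraries. ID1 and ID3 were each above the most abundant of these E proteins, TCF3, in mean TPM.

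**Figure D4:**
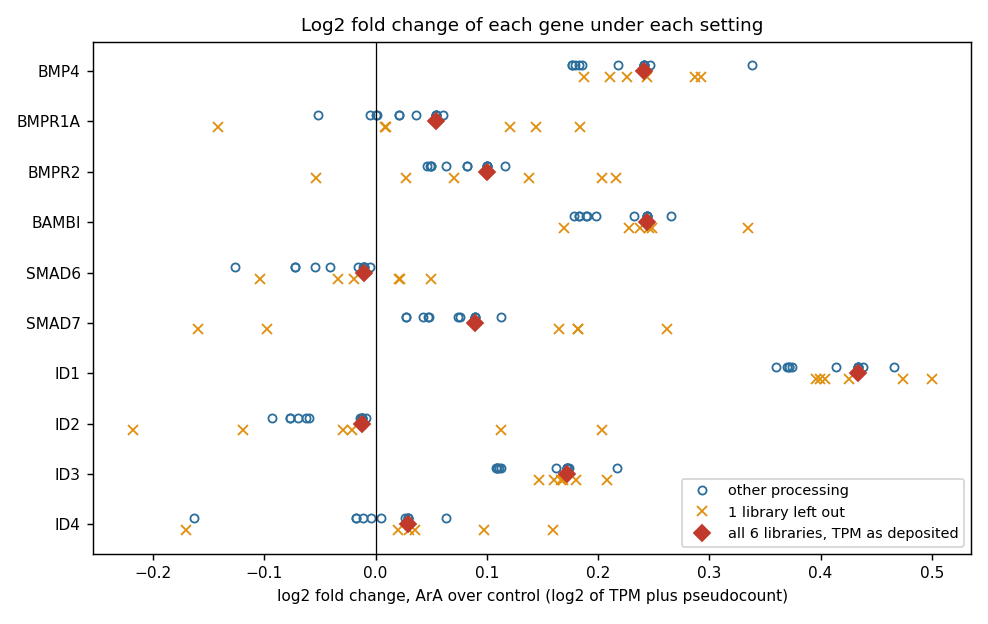
Log2 fold change of each gene, ArA over control (horizontal axis), with all libraries and TPM as deposited (red diamonds). Open circles show other processing and the fit without both control replicate 2 and ArA replicate 1. Crosses show fits with 1 library left out. ID1, ID3, BMP4 and BAMBI lie right of 0 throughout, and the other 6 genes have points on both sides. For genes whose groups do not overlap, leaving libraries out cannot change the side.

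The labelled cell type was checked by markers. The 6 markers of a mesenchymal triple-negative line summed to 2640 to 2777 TPM in ArA and 2469 to 2642 TPM in control libraries, with VIM the highest, while the hormone receptor genes ESR1 and PGR were at or near 0. The 5 endothelial markers, which matter here because endothelial cells express ID1 and SMAD6, summed to 0.81 to 1.27 TPM in ArA and 0.77 to 1.13 TPM in control libraries, and the 4 blood markers to 0.08 to 0.15 TPM in ArA and 0.07 to 0.15 TPM in control libraries. The 5 fibroblast markers summed to 9.21 to 13.63 TPM in ArA and 10.43 to 11.57 TPM in control libraries, mostly COL1A1 and PDGFRB, with DCN at or near 0. Of the 6 luminal markers, summing to 296 to 318 TPM in ArA and 267 to 334 TPM in control libraries, KRT18 held nearly all. Mitochondrially encoded transcripts took 26.9 to 32.1% of TPM in ArA libraries and 31.6 to 32.9% in control libraries, and a fall in their share raises all other TPM. Rescaled without them, the log2 fold change of ID1 was 0.37.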

How the data were processed

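Values came from 1 table of 6 libraries (TruSeq RNA kit, per the labels' protocols), deposited by the authors in TPM. Per the submitters' processing notes, HISAT2, StringTie, RSEM and hg38 were used; not given in the sources used here are their versions and roles, the annotation and the strand setting. Depth is unknown, since TPM keeps no read counts, and no counting interval is given. Beside 63241 genes the table held 50 lines that name no gene, which were left out.

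The 12999 genes averaging 1 TPM or more were fitted on the log2(TPM + 1) scale (limma 3.58.1 and R 4.3.3; lmFit, eBayes with trend), group as the only term, 2-sided, Benjamini-Hochberg over all tested genes, threshold 0.05. The fit was tested on simulated data. Fold is a ratio of mean TPM. P-values reflect only how far these libraries vary, and that may be technical. The 10 genes, the lists and the alternatives were chosen with earlier results of these data known. Of each list, the up to 3 genes of highest mean TPM and any past the threshold were named, and genes most like ID1 were the 5 with the highest r; 1 gene that this rule takes is not reported here, and other names were chosen after their values were seen. GC content came from GENCODE v29 by Ensembl identifier (97.2% of tested genes); GC correction subtracted a natural spline of 5 degrees of freedom from each library's deviations. The 3 other scalings used quantiles, median-of-ratios size factors, or totals that leave out mitochondrial transcripts; other pseudocounts (0.1 and 5), other filters, a replicate block, eBayes without trend and each library left out were also tried.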

Additional observations from a re-analysis of the deposited data

How the results depend on the processing

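Of the 10 genes, ID1, ID3, BMP4 and BAMBI kept a positive log2 fold change under all 18 alternatives (ID1 0.36 to 0.50, ID3 0.11 to 0.22, BMP4 0.18 to 0.34, BAMBI 0.17 to 0.33). Their groups did not overlap with TPM as deposited, so leaving libraries out or changing the pseudocount could not change that sign. The replicate block, eBayes without trend and the other filters leave the estimate as it was. For these genes only the 3 other scalings and the GC correction could have changed the sign. The sign changed in 6 alternatives for ID4, 3 each for BMPR1A and SMAD6, 2 each for SMAD7 and ID2, and 1 for BMPR2. Without control replicate 2 the log2 fold change was -0.14 for BMPR1A, -0.05 for BMPR2, -0.10 for SMAD7, -0.22 for ID2 and -0.17 for ID4, while ID2 had 0.20 without control replicate 3 and 0.11 without ArA replicate 1, and SMAD6 had 0.05 without control replicate 1. The number of genes past the threshold over the whole table was 3, and 2 to 4 under the other scalings, pseudocounts and filters. With 1 library left out it ranged from 0 to 7, being 0 without control replicate 1 or ArA replicate 2 (413 and 228 genes at an unadjusted p under 0.05 in limma) and 7 without control replicate 2 or ArA replicate 1. It was 5 with GC correction, 2 with GC correction and the replicate block, and 12 without both control replicate 2 and ArA replicate 1. With the replicate number as a block it was 0 (232 genes at an unadjusted p under 0.05 in limma). Same-numbered libraries had correlations of -0.16, -0.28 and 0.11 in their deviations. These deviations also follow GC content in control replicate 2 and ArA replicate 1, so they cannot settle whether the numbers pair the libraries. The labels state no pairing. The pathway lists had 0 genes past the threshold throughout, and their median log2 fold change ranged from 0.01 to 0.12. The cause of these shifts was not tested. The alternatives with GC correction and without both libraries were added after seeing the data. SMAD6, SMAD7 and ID4 gave no value with a mean of at least 5 TPM, which is above their level.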
